A study of Mus musculus with 21 samples.

Results

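The 10 transcription factors Ets1, Ets2, Erg, Fli1, Elk3, Tal1, Lyl1, Gata2, Hhex and Mef2c, which have known roles in endothelial development, were followed through all 21 libraries of the series. They were picked by gene symbol, and each symbol had 1 row among the 23827 rows of the expression table of every library. The series used translating ribosome affinity purification (TRAP), in which a ribosomal protein fused to the red fluorescent protein mCherry is switched on by Cre recombinase, and ribosomes with their bound RNA are pulled down through the tag and sequenced. RNA pulled down in this way is called a translatome, and total RNA of the tissue a transcriptome. The study asked how well such profiles pick out rare and abundant cell populations, and whether total or ribosome-bound RNA of the whole organ is the better reference.

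There were 7 groups of 3 libraries, all from mouse embryos at E14.5 that carried Gt(ROSA)26Sor-mCherry-Rpl10a+/-, the tagged ribosomal protein gene behind a stop cassette. Sox2Cre+/-, which recombines in all cells of the embryo proper, gave the transcriptome and the translatome of forebrain (dissected with part of the diencephalon) and of kidney. Cdh5CreERT2+/-, a tamoxifen-dependent Cre under an endothelial cadherin promoter, gave the translatome of brain and of kidney endothelial cells (EC), and the dams of these embryos received tamoxifen. Emx1Cre+/-, active in the dorsal telencephalon, gave the translatome of the Emx1-lineage, a neural population of the forebrain. The tagged allele came from a single targeted clone, organs were pooled within a sample, and a transcriptome and a translatome with the same number came from the same tissue sample.

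ETS factors share a winged-helix domain that reads a GGAA core, and most known endothelial enhancers hold such sites. Tal1, also called SCL, and its close relative Lyl1 are basic helix-loop-helix factors that bind E-boxes with E proteins and can join Lmo2, Ldb1 and a GATA factor in a single complex. Many of these factors also act in blood formation, and Mef2c in addition in muscle and in neurons of the cortex.

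The 10 genes lie on 8 chromosomes of GRCm38 (GENCODE vM21), and the ETS genes form 2 neighbouring pairs on opposite strands. Ets1 (chromosome 9, 32636221 to 32757820, plus strand) lies beside Fli1 (32422204 to 32542861, minus strand), and Ets2 (chromosome 16, 95702075 to 95721051, plus strand) beside Erg (95359169 to 95586593, minus strand). Elk3 is on chromosome 10 (93247414 to 93311135, minus strand), Tal1 on chromosome 4 (115056426 to 115071755, plus strand) and Lyl1 on chromosome 8 (84701457 to 84704715, plus strand). Gata2 is on chromosome 6 (88193891 to 88207032, plus strand), Hhex on chromosome 19 (37434810 to 37440731, plus strand) and Mef2c on chromosome 13 (83504034 to 83667080, plus strand). The kit did not mark strand, and Elk3 shares 316 of its 4550 exon bases (6.95%) with Cdk17 on the opposite strand, while Lyl1 shares 4 of 1800 (0.22%) with Nfix.

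RefSeq promoter windows on GRCm38.p6, each of 300 bases with 250 before and 50 after the start, were found for 8 of the 10 genes and numbered 14, since some genes have several starts. No window was available for Ets1 and Fli1, so their promoters were not searched. Each was searched on both strands for the ETS motifs CAGGAAG and CCGGAAG, the GATA motif AGATAA and the E-box CAGATG. An ETS motif stood in 5 of the 14 windows (35.7%), against 20.9% of all 32851 windows, and these belonged to Erg, Elk3, Lyl1, Hhex and Mef2c. CAGGAAG alone was in 13.3% of all windows and CCGGAAG in 8.86%. AGATAA was in 2 of the 14 windows, against 11.2% of all windows, and CAGATG in 2 of the 14, against 17.2%. The 4 windows below are shown because they hold every motif searched and belong to genes of the ETS, SCL and homeobox classes that rose together in endothelium. Capitals mark the motif letters: CAGGAAG and AGATAA in Erg, AGATAA and CAGATG in Tal1, CCGGAAG in Lyl1 and CAGGAAG in Hhex, read on the printed strand in Hhex and as its reverse complement in the other 3 windows. A match is a stretch of letters and not a measured binding site.

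Erg (chr16:95459299-95459598, minus strand): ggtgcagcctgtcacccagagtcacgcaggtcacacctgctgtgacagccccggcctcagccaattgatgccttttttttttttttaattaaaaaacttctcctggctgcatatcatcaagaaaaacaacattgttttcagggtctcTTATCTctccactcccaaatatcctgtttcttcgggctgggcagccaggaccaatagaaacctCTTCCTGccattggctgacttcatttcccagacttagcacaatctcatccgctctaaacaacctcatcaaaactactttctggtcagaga

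Tal1 (chr4:115056176-115056475, plus strand): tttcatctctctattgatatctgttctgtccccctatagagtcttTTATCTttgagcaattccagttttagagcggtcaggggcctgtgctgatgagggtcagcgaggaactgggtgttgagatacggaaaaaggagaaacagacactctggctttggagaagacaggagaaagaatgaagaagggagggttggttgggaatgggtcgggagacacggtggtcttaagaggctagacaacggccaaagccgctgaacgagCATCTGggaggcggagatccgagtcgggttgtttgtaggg

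Lyl1 (chr8:84701207-84701506, plus strand): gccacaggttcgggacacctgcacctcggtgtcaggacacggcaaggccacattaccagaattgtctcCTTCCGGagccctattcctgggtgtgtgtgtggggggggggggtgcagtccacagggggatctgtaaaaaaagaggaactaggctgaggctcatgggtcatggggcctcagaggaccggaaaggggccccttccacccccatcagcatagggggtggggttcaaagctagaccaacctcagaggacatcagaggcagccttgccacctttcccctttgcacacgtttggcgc

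Hhex (chr19:37434591-37434890, plus strand): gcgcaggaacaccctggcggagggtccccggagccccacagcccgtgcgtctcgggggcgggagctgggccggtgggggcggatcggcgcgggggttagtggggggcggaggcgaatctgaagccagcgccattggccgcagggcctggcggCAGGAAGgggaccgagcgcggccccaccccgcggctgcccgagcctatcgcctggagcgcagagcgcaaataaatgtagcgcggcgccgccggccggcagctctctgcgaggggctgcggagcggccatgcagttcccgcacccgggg

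Between 21760652 and 79231692 reads were counted on genes per library. No library was left out, and no pair of libraries agreed within sampling noise. Against the labels, the summed RPKM (reads scaled by transcript length and library depth) of 14 endothelial markers was 4569 to 4739 in brain EC and 2962 to 3523 in kidney EC. It was 244 to 275 in the brain translatome, 545 to 585 in the kidney translatome and 24.4 to 29.0 in the Emx1-lineage. The brain EC libraries still held a summed 477 to 611 RPKM of 10 neuron markers, against 2555 to 2596 in the brain translatome. In bulk samples of this kind, fewer cells of a type and less RNA per cell cannot be told apart.

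Of the 10 factors, 9 had their 2 highest levels in the endothelial groups and 9 had their lowest level in the Emx1-lineage. Mef2c was the exception to both. Highest of all was Ets1, the founding ETS factor, in brain EC, at 218 ± 10.6 RPKM (SD, n = 3), and next came Elk3, a repressor that works with serum response factor, in kidney EC, at 170.3 ± 10.7 RPKM. Within endothelium the ETS factors were above the others in length-scaled level. Their means ran from 53.8 to 218 RPKM in brain EC and from 61.3 to 170.3 RPKM in kidney EC, whereas Tal1, Lyl1, Gata2, Hhex and Mef2c ran from 14.3 to 42.2 RPKM and from 21.7 to 48.6 RPKM. The order of the groups was otherwise much alike: 8 factors were highest in kidney EC and 2, Ets1 and Fli1, in brain EC. In that order the brain EC and kidney EC samples overlapped for Lyl1, Gata2 and Hhex, and the brain translatome and transcriptome samples for Ets1, Ets2, Erg, Tal1 and Lyl1.

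**Figure D1:**
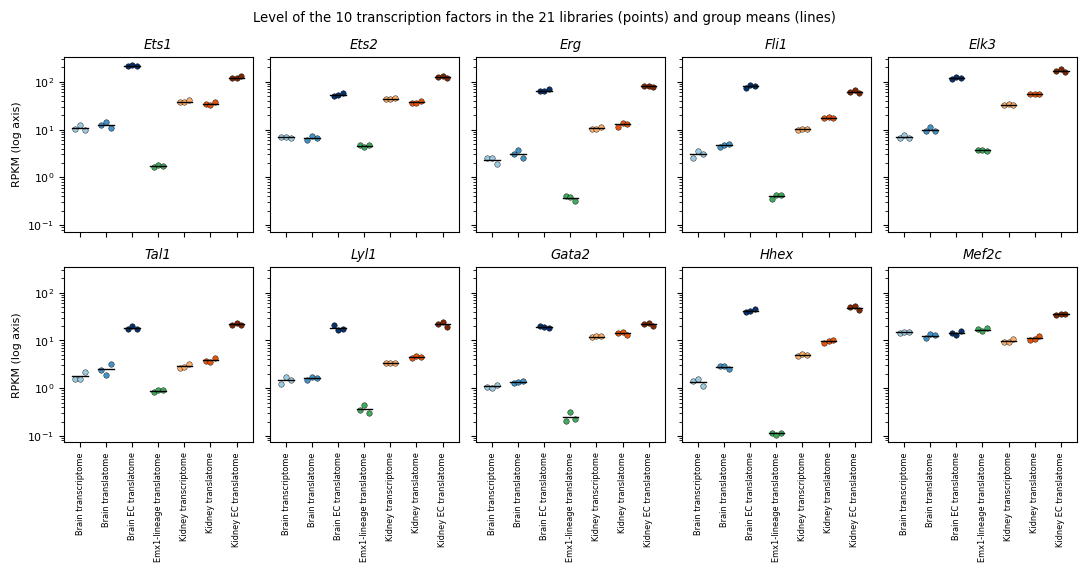
RPKM on a log axis of the 10 transcription factors in the 21 libraries, with 3 points per group and a line at the group mean. The endothelial groups (dark blue and dark red) lie highest for every factor but Mef2c, which lies at 13.2 to 15.6 RPKM in brain EC, among the forebrain groups, and at 34.8 to 36.2 RPKM in kidney EC.

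In brain, all 10 factors were higher in EC than in the whole-forebrain translatome (edgeR's quasi-likelihood test, Benjamini-Hochberg adjusted p under 0.001), where 24.8% of the 19103 genes tested were higher. Their median log2 fold change was 4.02, against -0.01 over all genes. Ets1 stood at 210.4, 230.3 and 214 RPKM in brain EC and at 12.5, 14.5 and 10.9 in the brain translatome, a log2 fold change of 4.40 ± 0.11 (SE, adjusted p = 1.7e-12). The lowest endothelial library was far above the highest whole-forebrain library. Erg, an ETS factor that maintains endothelial junctions, had the largest change of the 10, from 3.14, 3.71 and 2.54 RPKM to 63.7, 62.8 and 69.4, a log2 fold change of 4.67 ± 0.11 (SE, adjusted p = 1.2e-12). Its close relative Fli1 went from 4.24, 4.86 and 4.87 RPKM to 75.3, 85.5 and 79.9, with a log2 fold change of 4.40 ± 0.09 (SE, adjusted p = 5.8e-13). The groups did not overlap for either gene, nor for Elk3, at 3.88, or Ets2, a target of growth factor signalling and the least enriched ETS member, at 3.29.

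The non-ETS factors were lower in level but all but Mef2c rose in brain endothelium by log2 fold changes of 3.17 to 4.22. Tal1 was at 17.7, 20.1 and 17.2 RPKM in brain EC and at 2.42, 1.86 and 3.19 in the brain translatome, a log2 fold change of 3.17 ± 0.15 (SE, adjusted p = 6.3e-10). Lyl1 stood at 20.8, 16.7 and 17.5 RPKM and 1.48, 1.71 and 1.65 RPKM, with a log2 fold change of 3.80 ± 0.12 (SE, adjusted p = 8.6e-12). In absolute terms Tal1 and Lyl1 had nearly the same endothelial level, at a mean of 18.3 RPKM each. Gata2, a zinc finger factor of endothelium and blood stem cells, stood at 20.5, 19.3 and 18.6 RPKM against 1.25, 1.35 and 1.39, a log2 fold change of 4.17 ± 0.09 (SE, adjusted p = 6.4e-13). Hhex, a homeobox factor of early endothelium and of liver and thyroid, stood at 40.1, 40.8 and 45.7 RPKM against 2.89, 2.88 and 2.54, a log2 fold change of 4.22 ± 0.09 (SE, adjusted p = 7.8e-13). All 3 endothelial libraries were above all 3 forebrain libraries for each of these genes.

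Mef2c, a MADS-box factor of endothelium, heart and cortical neurons, had samples that overlapped, at 14.0, 13.2 and 15.6 RPKM in brain EC and 11.5, 13.5 and 13.0 RPKM in the brain translatome. Its log2 fold change was 0.46 ± 0.08 (SE, adjusted p = 2.9e-04), and this call depended on the scaling, the filter on low counts and single libraries. DESeq2 kept the call, at 0.455 (adjusted p = 1.1e-05), as did edgeR with relative log expression (RLE) factors, at 0.455 (adjusted p = 3.7e-04). The log2 fold change was 0.17 (adjusted p = 0.098) with total counts in place of TMM (trimmed mean of M values) factors. With limma, run on RPKM without TMM factors, it was 0.16 (adjusted p = 0.14) on log2(RPKM + 1) and 0.17 (adjusted p = 0.13) on log2(RPKM + 0.1). With only genes of at least 10 counts in 3 samples it was 0.44 by edgeR (adjusted p = 0.001), just short of the threshold. It was 0.40 (adjusted p = 0.0037) without brain translatome replicate 1 and 0.39 (adjusted p = 0.0014) without brain EC replicate 3. Total counts moved the median of all genes to -0.30 in this comparison and to -0.41 in the kidney one, and turned the split of higher and lower genes from 4740 and 4084 to 3397 and 6002 in brain and from 3163 and 2837 to 1564 and 5655 in kidney. The other 9 factors kept log2 fold changes of 2.87 or more in brain under total counts.

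In kidney, all 10 factors were again higher in EC than in the organ translatome, where 16.7% of the 18940 genes tested were higher. The median log2 fold change was 2.16, against -0.04 over all genes. Erg rose from 11.5, 14.0 and 12.9 RPKM to 82.9, 83.6 and 78.5, a log2 fold change of 3.03 ± 0.07 (SE, adjusted p = 3.7e-10), the largest of the 10 in this organ too. Tal1 followed with 3.77, 3.50 and 4.21 RPKM and 20.7, 23.7 and 21.4 RPKM, a log2 fold change of 2.87 ± 0.09 (SE, adjusted p = 9.5e-10). Hhex, at 2.70, and Lyl1, at 2.64, came next. The remaining ETS factors were close to each other, with log2 fold changes of 2.17 for Ets1, 2.15 for Fli1, 2.09 for Ets2 and 1.95 for Elk3. Mef2c, unlike in brain, stood clear of the whole organ, at 34.8, 36.2 and 35.0 RPKM in kidney EC and 10.0, 10.6 and 12.4 RPKM in the kidney translatome, a log2 fold change of 2.04 ± 0.08 (SE, adjusted p = 4.3e-09). Gata2 had the smallest rise, from 14.2, 14.8 and 13.0 RPKM to 21.9, 22.9 and 20.4, a log2 fold change of 0.99 ± 0.07 (SE, adjusted p = 4.5e-07). Its 3 endothelial libraries were still above all 3 whole-kidney libraries. With total counts in place of TMM factors all 10 factors kept the call in kidney. Their log2 fold changes were then smaller, from 0.62 for Gata2 to 2.66 for Erg.

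**Figure D2:**
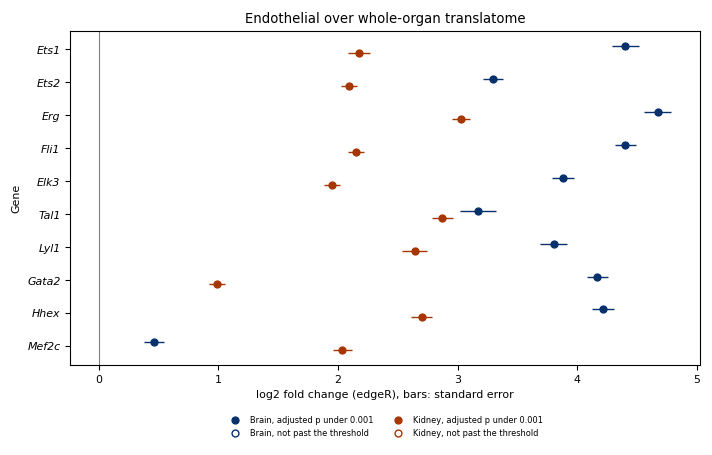
Log2 fold change of each factor in endothelial over whole-organ translatome for brain (blue) and kidney (red), with bars for the standard error (3 libraries per group) and filled points for an adjusted p under 0.001. The brain values exceed the kidney values for 9 factors, from 3.17 to 4.67 against 0.99 to 3.03, and for Mef2c the order is turned, 0.46 against 2.04.

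With total RNA as the reference, 9 of the 10 factors were higher in brain EC (26.8% of all genes were higher) and 10 of 10 in kidney EC (22.7%). Hhex had the largest log2 fold change in both, 5.29 ± 0.12 (SE, adjusted p = 9.7e-13) in brain and 3.73 ± 0.08 (SE, adjusted p = 6.4e-10) in kidney. Mef2c did not pass in brain, at 14.0, 13.2 and 15.6 RPKM in EC and 14.1, 14.8 and 15.1 RPKM in total RNA, and its log2 fold change was 0.30 ± 0.07 (SE, adjusted p = 0.0024). Its direction turned with the scaling, to -0.04 with total counts (adjusted p = 0.6), and it passed at 0.34 (adjusted p = 3.1e-04) without brain EC replicate 2. With DESeq2 it passed as well, at 0.29 (adjusted p = 8.6e-04). Total counts moved the median of all genes to -0.40 in brain and -0.53 in kidney here, and turned the split of higher and lower genes from 5232 and 4750 to 3763 and 6862 in brain and from 4388 and 3550 to 2246 and 6864 in kidney.

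The endothelial libraries differed from the whole-organ libraries in driver line, in tamoxifen and in the sequencing lane the study's sample sheet lists, which cannot be told apart from the cell type. Markers of other cells were measured beside these results. The summed RPKM of 12 macrophage and microglia markers was lower in EC, at 42.6 to 44.3 against 83.0 to 94.1 in the brain translatome and at 12.3 to 12.9 against 59.3 to 70.9 in the kidney translatome. Of them 6 in brain and 12 in kidney were lower and none higher. Among 9 erythroid markers tested, Alas2 and Epor were higher in brain EC, while Hba-x, Hbb-y and Epor were lower in kidney EC. The adult globin rows Hba-a1, Hba-a2 and Hbb-b1, each a gene with a near-identical copy, were listed at 0 in both. The 8 megakaryocyte and platelet markers summed to 9.66 to 11.9 RPKM in brain EC, against 16.9 to 20.8 in the brain translatome, and to 23.2 to 32.6 in kidney EC, against 14.7 to 16.7 in the kidney translatome. Of these, Itga2b rose and Pf4 fell in brain EC, and Pf4 rose in kidney EC. The 8 mural cell markers summed to 30.4 to 34.7 RPKM in brain EC, against 47.6 to 65.9, and to 122.8 to 134 in kidney EC, against 169 to 185. Of them 5 were lower and 2, Cspg4 (2.58) and Anpep (0.78), higher in brain EC, and 6 were lower and 2, Cspg4 (1.99) and Abcc9 (1.11), higher in kidney EC. Of 10 neuron markers 9 were lower and 1 higher in brain EC, of 8 neural progenitor markers 7 lower and 1 higher, and of 14 kidney epithelial and stromal markers 12 lower and 1 higher in kidney EC. The part of these cells in the levels of the 10 factors was not tested.

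The gain of endothelium over the whole organ differed between brain and kidney for 9 of the 10 factors (25.1% of all genes), tested as an interaction in 12 libraries. For 8 the gain was larger in brain (16.5% of all genes had a larger gain there) and for Mef2c it was smaller (8.6% of all genes). The median difference in log2 fold change, brain minus kidney, was 1.61 for the factors and 0.16 over all 19764 genes. Gata2 had the largest difference, 3.21 ± 0.11 (SE, adjusted p = 1.5e-12). Its brain and kidney endothelial levels overlapped, while its whole-organ level was 1.25 to 1.39 RPKM in the brain translatome and 13.0 to 14.8 in the kidney translatome. Fli1 followed, with a difference of 2.28 ± 0.10 (SE, adjusted p = 4.3e-11), and then Ets1, with 2.26 ± 0.14 (SE, adjusted p = 1.2e-09). Both had higher endothelial and lower whole-organ levels in brain than in kidney. Elk3 differed by 1.96, Erg by 1.67, Hhex by 1.54, Ets2 by 1.23 and Lyl1 by 1.19. Tal1 did not pass, with a difference of 0.32 ± 0.19 (SE, adjusted p = 0.19). Mef2c went the other way, with -1.55 ± 0.12 (SE, adjusted p = 1.9e-08). The 14 endothelial markers moved with this result, since all of them had a larger gain in brain, with a median difference of 1.55, and their summed level in the whole-organ translatome was lower in brain than in kidney. How far that level bears on the factors was not tested.

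Set directly against each other, brain and kidney endothelium differed in 5 of the 10 factors (37% of 19238 genes differed). Ets1 and Fli1, the neighbours on chromosome 9, were higher in brain EC (20.1% of genes were), and Ets2, Elk3 and Mef2c were lower (16.9% were). Ets1 was at 210.4, 230.3 and 214 RPKM in brain EC and 117, 119 and 130.3 in kidney EC, a log2 fold change of 0.88 ± 0.08 (SE, adjusted p = 4.3e-06). Fli1 was at 75.3, 85.5 and 79.9 and 60.4, 66.2 and 57.3 RPKM, a log2 fold change of 0.43 ± 0.07 (SE, adjusted p = 5.0e-04). Neither pair of groups overlapped, but the call for Fli1 was lost when any of 4 libraries was left out (brain EC replicates 2 and 3 and kidney EC replicates 1 and 3, log2 fold changes of 0.39, 0.44, 0.43 and 0.40, adjusted p = 0.0013 to 0.0031).

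Mef2c had the largest difference, at 14.0, 13.2 and 15.6 RPKM in brain EC and 34.8, 36.2 and 35.0 in kidney EC, a log2 fold change of -1.25 ± 0.08 (SE, adjusted p = 1.4e-07). Ets2 was at 51.0, 52.4 and 57.8 and 124, 130.0 and 119.7 RPKM, with -1.17 ± 0.07 (SE, adjusted p = 1.9e-07). Every brain library was below every kidney library for both genes. Elk3 was at 113, 128 and 119 and 165, 183 and 163 RPKM, with -0.46 ± 0.08 (SE, adjusted p = 3.6e-04), and it too lost its call when any of 4 libraries was left out (brain EC replicates 1 and 3 and kidney EC replicates 1 and 2, log2 fold changes of -0.42, -0.45, -0.48 and -0.42, adjusted p = 0.0015 to 0.0028). Erg was at 63.7, 62.8 and 69.4 and 82.9, 83.6 and 78.5 RPKM without overlap, yet its log2 fold change of -0.28 ± 0.07 (SE, adjusted p = 0.0041) did not pass the threshold of 0.001. It did pass with DESeq2, at -0.28 (adjusted p = 3.9e-04). For Tal1 (-0.21, adjusted p = 0.037), Lyl1 (-0.21, adjusted p = 0.095), Gata2 (-0.11, adjusted p = 0.17) and Hhex (-0.16, adjusted p = 0.12) no difference was detected, and the samples overlapped for all of these but Tal1. In both neighbouring pairs of ETS genes the log2 fold changes were of 1 sign, positive on chromosome 9 and negative on chromosome 16, where the value for Erg was not past the threshold by edgeR. A link between position and these signs was not tested. Each organ's endothelial libraries were listed on 1 sequencing lane of their own, so that lane and organ cannot be told apart. The 14 endothelial markers summed to 4569 to 4739 RPKM in brain EC against 2962 to 3523 RPKM in kidney EC. Of the single ones called, only Emcn (-1.25) was lower in brain EC. Cldn5 (2.04), Esam (1.09), Eng (0.84) and Nos3 (0.805) were higher there, and further ones were higher by less. How far the level of these markers bears on the factors was not tested. Markers of other cells also differed between the endothelia. All 10 neuron markers (summed 477 to 611 RPKM in brain EC against 16.3 to 18.2 in kidney EC) and all 8 neural progenitor markers were higher in brain EC, as were 9 of 12 macrophage and microglia markers (42.6 to 44.3 against 12.3 to 12.9 RPKM) and 3 of 9 erythroid markers. Lower in brain EC were 6 of 8 mural cell markers (30.4 to 34.7 against 122.8 to 134 RPKM) and 12 of 14 kidney epithelial and stromal markers (46.3 to 67.8 against 208 to 277 RPKM), of which 2 were higher. The 8 megakaryocyte and platelet markers summed to 9.66 to 11.9 RPKM in brain EC against 23.2 to 32.6 in kidney EC. Of them Pf4 (-1.71) was lower and Itga2b (0.90) higher in brain EC. The part of all these other cells in the 5 calls was not tested.

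**Figure D3:**
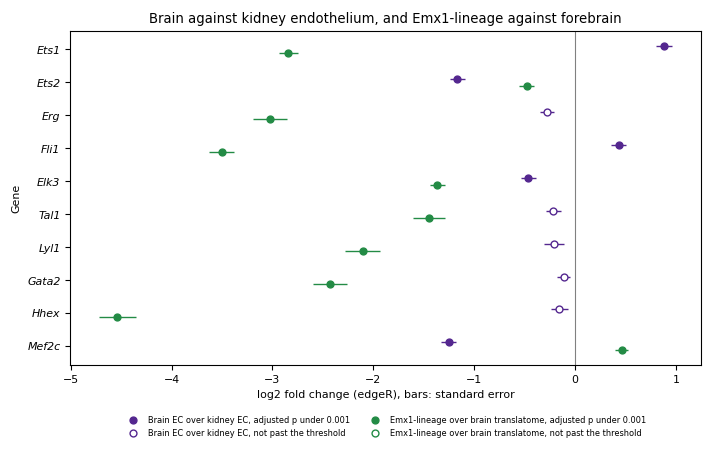
Log2 fold change of each factor in brain EC over kidney EC (purple) and in the Emx1-lineage over the brain translatome (green), with bars for the standard error (3 libraries per group), filled points for an adjusted p under 0.001 and open points for the rest. Between the endothelia the values lie from -1.25 to 0.88, and in the Emx1-lineage from -4.54 for Hhex to 0.46 for Mef2c.

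In the Emx1-lineage, 9 of the 10 factors were lower than in the brain translatome (12.8% of 19006 genes were) and Mef2c was higher (9.2% were). The median log2 fold change was -2.27, against 0.00 over all genes. Hhex fell furthest, from 2.89, 2.88 and 2.54 RPKM to 0.114, 0.107 and 0.117, a log2 fold change of -4.54 ± 0.18 (SE, adjusted p = 6.1e-11), on 6 to 16 reads per Emx1-lineage library. Fli1 was at 0.343, 0.429 and 0.434 RPKM there, with a log2 fold change of -3.50 ± 0.12 (SE, adjusted p = 1.6e-11), and Erg at 0.404, 0.384 and 0.315 RPKM, with -3.02 ± 0.17 (SE, adjusted p = 2.3e-09). These 3 and Gata2 (0.206 to 0.311 RPKM) and Lyl1 (0.304 to 0.437 RPKM) were all below 0.5 RPKM. Nfix, whose exons touch Lyl1 on the opposite strand, was at 202 to 213 RPKM in the same libraries. Ets1 kept 1.60 to 1.78 RPKM and Tal1 0.836 to 0.924 RPKM. Least changed of the 9 were Elk3, whose opposite-strand partner Cdk17 was at 30.2 to 34.8 RPKM in these libraries, at 3.81, 3.81 and 3.51 RPKM and a log2 fold change of -1.37 ± 0.07 (SE, adjusted p = 1.4e-09), and Ets2, at 4.68, 4.38 and 4.79 RPKM and -0.48 ± 0.07 (SE, adjusted p = 9.8e-05). Mef2c was at 17.1, 15.4 and 17.8 RPKM against 11.5, 13.5 and 13.0 in the brain translatome, a log2 fold change of 0.46 ± 0.07 (SE, adjusted p = 5.7e-05). That was its highest mean level in brain, although its lowest Emx1-lineage library was below the highest brain EC library. With limma on log2(RPKM + 1), Mef2c no longer passed here, at 0.38 (adjusted p = 0.0083), nor did Ets2, at -0.46 (adjusted p = 0.0023), and Tal1, at -0.87 (adjusted p = 0.0028). Total counts turned the split of higher and lower genes from 1749 and 2442 to 1183 and 2778 in this comparison. The Emx1-lineage libraries had their own driver line and sequencing lane, and all 12 macrophage and microglia markers, all 8 mural cell markers and all 14 endothelial markers were lower in them too.

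Ribosome-bound and total RNA of the same organ differed less. In brain, Fli1, Elk3 and Hhex were higher in the translatome (18.6% of 19446 genes were), and no factor was lower at the threshold (18.5% were). Hhex was at 2.89, 2.88 and 2.54 RPKM in the translatome and 1.42, 1.56 and 1.10 in total RNA, which gave a log2 fold change of 1.06 ± 0.15 (SE, adjusted p = 2.3e-05). Fli1 had a log2 fold change of 0.64 ± 0.11 (SE, adjusted p = 2.3e-04) and Elk3 of 0.55 ± 0.08 (SE, adjusted p = 5.7e-05), and the samples of these 3 genes did not overlap. Without brain translatome replicate 2 or 3, Fli1 no longer passed, at 0.61 (adjusted p = 0.0011) and 0.60 (adjusted p = 0.0013). Ets2 was at 6.71 ± 0.508 RPKM in the translatome and 6.87 ± 0.250 RPKM in total RNA (SD, n = 3), and the samples overlapped. With the tissue sample as a block, which pairs the libraries of 1 sample, 6 factors were higher, as Ets1 (0.25, adjusted p = 3.2e-04), Erg (0.46, adjusted p = 9.0e-05) and Tal1 (0.52, adjusted p = 7.8e-06) joined them. The 18.6% of all genes is from the fit without the block, and the block moved that count by no more than 1.5 times. The 14 endothelial markers were higher in sum too, at 244 to 275 RPKM in the brain translatome against 154 to 193 in total RNA. How far this bears on the factors was not tested.

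In kidney the same 3 genes were higher in the translatome (14.9% of 19336 genes were). Hhex had a log2 fold change of 0.96 ± 0.09 (SE, adjusted p = 9.5e-06), Fli1 of 0.81 ± 0.06 (SE, adjusted p = 8.2e-07) and Elk3 of 0.77 ± 0.04 (SE, adjusted p = 7.7e-08). Elk3 was at 56.8, 56.6 and 55.8 RPKM in the translatome and 33.1, 33.6 and 32.7 in the transcriptome, with a spread within groups of about 1 RPKM. Ets2 was lower in the translatome (15.8% of genes were), at 36.6, 36.6 and 38.9 RPKM against 43.5, 43.0 and 45.2, a log2 fold change of -0.23 ± 0.04 (SE, adjusted p = 7.1e-04). That call was lost without any 1 of 5 of the 6 libraries, kidney translatome replicate 3 being the exception, at log2 fold changes of -0.25 to -0.21 (adjusted p = 0.0015 to 0.0045). With the tissue sample as a block 8 factors were higher and 2, Ets1 and Ets2, lower, but the prior degrees of freedom of that fit were infinite, so that its test used the trend over all genes and not each gene's own spread. The blocked fit also called over 1.5 times as many of all genes, higher and lower, as the fit without the block. Here too the 14 endothelial markers were higher in sum, at 545 to 585 RPKM in the kidney translatome against 403 to 446 in total RNA. What part this has in the factors' values was not tested.

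Whether the ribosome-bound over total fold change differed between the organs depended on pairing the libraries by tissue sample. Without pairing, no difference passed the threshold for any of the 10 factors (2.35% of 20108 genes were higher in brain and 4.12% lower). At an unadjusted p under 0.05 there were 4 factors by edgeR, and DESeq2 and limma, also without pairing, called 0 at the threshold. Mef2c had the smallest p, with a difference of -0.38 ± 0.10 (SE, adjusted p = 0.013). In the edgeR fit blocked by tissue sample Ets1 was higher, at 0.38 (adjusted p = 2.0e-05), and Mef2c lower, at -0.38 (adjusted p = 4.6e-05). That fit also called over 1.5 times as many of all genes, higher and lower, as the fit without the block.

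Between the whole organs, 8 of the 10 factors were lower in the brain than in the kidney transcriptome (26.3% of 19841 genes were) and Mef2c was higher (27.2% were). The median log2 fold change was -1.65, against -0.02 over all genes. Gata2 was at 1.07, 1.00 and 1.18 RPKM in brain and 11.7, 12.2 and 12.2 in kidney, a log2 fold change of -3.29 ± 0.08 (SE, adjusted p = 4.8e-11). Ets2 followed with 6.82, 7.14 and 6.64 and 43.5, 43.0 and 45.2 RPKM, a log2 fold change of -2.49 ± 0.04 (SE, adjusted p = 1.8e-12). These 2 were the furthest apart. Elk3, at -2.06, and Erg, at -1.99, came next, ahead of Hhex (-1.67), Ets1 (-1.64), Fli1 (-1.54) and Lyl1 (-0.98). Mef2c was at 14.1, 14.8 and 15.1 RPKM in brain and 9.42, 9.15 and 10.6 in kidney, with 0.79 ± 0.05 (SE, adjusted p = 1.1e-07). Tal1 did not pass, at -0.51 ± 0.13 (SE, adjusted p = 0.0052), although it did without brain transcriptome replicate 3, at -0.71 (adjusted p = 2.9e-04). Total counts moved the median of all genes to -0.20 here and the split of higher and lower genes from 5398 and 5218 to 4534 and 6384. The endothelial markers were lower in brain as well, 13 of 14 at the threshold.

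Relatives of the 10 factors moved in both directions. Of 20 other ETS genes tested, 10 were higher and 2 lower in brain EC than in the brain translatome, with a median of 0.32 (24.8% of all genes were higher and 21.4% lower). In kidney EC 7 were higher and 6 lower, with a median of 0.06 (16.7% of all genes were higher and 15% lower). Fev had the largest log2 fold change in brain, 5.32, but stood at 0.207, 0.254 and 0.353 RPKM there. Elf4 rose by 3.37 to 6.80 ± 0.371 RPKM (SD, n = 3), Erf by 2.04 and Etv6 by 1.95, while Etv1 (-1.14) and Elk1 (-0.75) were lower. In kidney EC, Elf4 (1.42), Elk4 (1.08), Etv6 (0.87) and Elf1 (0.67) rose most. The epithelial ETS genes Elf5 (-2.23), Ehf (-1.76) and Elf3 (-1.45) were lower there, and so was Etv4 (-0.95). The Spi1 gene was not analysed here.

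Among the other GATA factors, Gata3 (2.36) and Gata6 (3.28) were higher in brain EC and lower in kidney EC (-1.51 and -0.86) than in the organ translatome. At 4.23 ± 0.601 and 1.17 ± 0.171 RPKM in brain EC both were below Gata2. Gata1, the erythroid factor, was at 0.0104 to 0.0193 RPKM in brain EC and 0.0135 to 0.0676 in kidney EC, Gata4 at 0 to 0.0103 and 0.0540 to 0.244, and Gata5 at 0 to 0.0106 and 2.43 to 2.97, and none of these passed in either organ. Of the other MEF2 genes, Mef2a was higher in both endothelia, by 2.04 in brain and 1.25 in kidney, as was Mef2d, by 1.01 and 0.94. Mef2b, at 0.0715 to 0.135 RPKM in brain EC and 0.0371 to 0.163 RPKM in kidney EC, did not pass. Mef2a was at 33.3, 34.1 and 39.9 RPKM in brain EC, above Mef2c in every library.

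Of 13 genes that work with Tal1 or against it, 5 were higher and 2 lower in brain EC, with a median of 0.23, and 5 higher and 3 lower in kidney EC, with a median of 0.31, against the same shares of all genes. Lmo2, the bridging protein of the complex, was at 246, 277 and 265 RPKM in brain EC against 26.9, 25.5 and 23.5 in the brain translatome, a log2 fold change of 3.67 ± 0.08 (SE, adjusted p = 8.7e-13). It was above every one of the 10 factors in brain EC in mean level. In kidney EC it was at 157 ± 7.08 RPKM (SD, n = 3), with a log2 fold change of 2.54. Id1 (3.36), Zfpm1 (3.05), which binds GATA factors, and Id3 (2.90) were the others furthest up in brain EC, and Cbfa2t3 (2.29), Zfpm1 (1.46) and Tcf4 (1.15) in kidney EC. Id2 fell in both, by 1.73 and 1.21 on the log2 scale, as did Cbfa2t2 in brain (-0.54) and Runx1 (-1.13) and Tcf12 (-0.40) in kidney. The E protein gene Tcf3 rose by 0.64 in brain EC, and Ldb1 did not pass in either organ.

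Genes known to be regulated through ETS sites in endothelium were higher as well. In brain EC 16 of 16 were (24.8% of all genes were), with a median of 4.43. In kidney EC 15 of 16 were (16.7% of all genes were), with a median of 2.99. The list shares most of its genes with the endothelial markers, and a link between these genes and the factors was not tested. Nos3, Icam2, Cdh5 and Robo4 had the largest log2 fold changes in brain, 4.84, 4.82, 4.77 and 4.74. The exception in kidney was Angpt2, a Tie receptor ligand, at 3.80, 2.95 and 3.86 RPKM in kidney EC and 6.50, 7.94 and 7.03 in the kidney translatome, a log2 fold change of -0.66 ± 0.13 (SE, adjusted p = 0.0012), against 3.17 in brain. All 16 were lower in the Emx1-lineage (12.8% of all genes were), with a median of -3.29. All 16 had a larger gain in brain than in kidney (16.5% of all genes had). Between the endothelia 8 were higher in brain EC (20.1% of all genes were) and 1, Icam2, was lower (16.9% were).

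**Figure D4:**
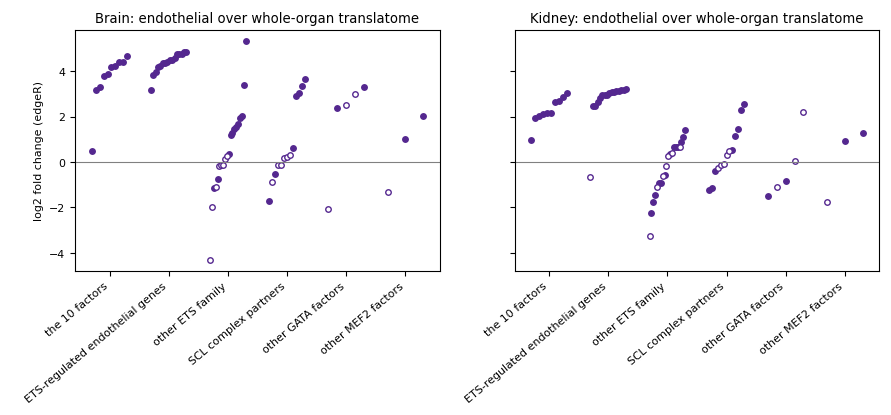
Log2 fold change in endothelial over whole-organ translatome of the 10 factors, their related gene lists and genes known to be regulated through ETS sites, for brain (left) and kidney (right), each list sorted by value, with filled points for an adjusted p under 0.001 and open points for the rest. The 10 factors (medians 4.02 and 2.16) and the ETS-regulated genes (4.43 and 2.99) lie above 0 except Angpt2 in kidney, and the other families spread to both sides.

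Across the 21 libraries the levels of the 9 factors other than Mef2c followed each other, with Pearson's r of log2(RPKM + 1) from 0.823 to 0.993 over 36 pairs and a median of 0.963. The 9 pairs with Mef2c had r from 0.154 to 0.540. Libraries of a group came from like tissue, so these values describe the 7 groups more than 21 separate points. Among 11521 mRNA rows with a mean of at least 5 RPKM in a group, the genes most like each factor had r of 0.988 to 0.997, apart from those of Mef2c. They were Ptrf, Sparc and Arap3 for Ets1, Nhsl2, Irgm1 and Gimap4 for Ets2, Afap1l1, She and Sipa1 for Erg, Egfl7, Uaca and Lyn for Fli1, and Cdc42ep1, Dusp3 and Card10 for Elk3. For Tal1 they were Cpne8, Cmklr1 and 4632428N05Rik, for Lyl1 Adam15, Arhgef15 and Cmklr1, for Gata2 Tspan9 and Bag3, and for Hhex Prkch, Cyyr1 and N4bp3. For Mef2c, Gem (0.938), Smad1 (0.927) and Micall1 (0.927) were the most alike. Most of these entries changed with the pseudocount, since 12 of 30 stayed among the 3 most alike at 0.1 in place of 1.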

How the data were processed

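The authors mapped reads with RUM to GRCm38 (mm10) and computed, with rpkmforgenes on the UCSC refGene annotation, the deposited count of reads per gene (not normalized) and the deposited RPKM. RPKM values are given as mean ± SD of 3 libraries. The quasi-likelihood test of edgeR 4.0.16 (R 4.3.3; TMM factors, glmQLFit and glmQLFTest) was run on the counts of all rows with at least 1 count, in 9 comparisons of 3 with 3 libraries and 2 interactions of 12 libraries. P-values were adjusted over all genes (Benjamini-Hochberg, threshold 0.001), and standard errors (SE) were taken as the size of the log2 fold change over the root of its F statistic. The test was also run on simulated counts in which few genes changed, up and down alike, so that this run does not bear on the choice of scaling. The depth, 21760652 to 79231692 reads, sets the precision, and Hhex in the Emx1-lineage rests on 6 to 16 reads. The labels do not say that libraries of a group came from separate litters, so p-values measure the spread between these libraries.

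The 10 factors and the gene lists were chosen with earlier results of these data known. All 10 were named, with the 3 genes most like each (an entry for Gata2 is not reported here), the genes of lists of at most 5, and up to 4 called genes per list and direction. In addition Alas2, Epor, Hba-x, Hbb-y, Itga2b, Pf4, Nfix and Cdk17 were named after their values were seen. Alternatives were DESeq2 1.42.0, limma 3.58.1 on log2(RPKM + 1) or log2(RPKM + 0.1), RLE factors, total counts, at least 10 counts in 3 samples, a threshold of 0.05, 1 fit of 21 samples, a replicate block and each library left out. Deviations from the group means correlated over same-numbered libraries at 0.386 to 0.617 between brain translatome and transcriptome, 0.552 to 0.622 in kidney, where a number marks a shared tissue sample, and 0.173 to 0.347 between brain and kidney EC, where the pairing is read from the data only. Pandas 2.3.3, numpy 2.4.6 and matplotlib 3.10.9 in Python 3.11.15 were used for tables and figures.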

Additional observations from a re-analysis of the deposited data

Results flagged for a closer look

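The gain of endothelium over the whole-organ translatome differed between brain and kidney in an interaction test for 9 of the 10 factors. Of all genes 25.1% differed, 16.5% with a larger gain in brain and 8.6% with a larger gain in kidney. All 14 endothelial markers had a larger gain in brain too. The brain minus kidney difference in log2 fold change was 3.21 for Gata2, 2.28 for Fli1, 2.26 for Ets1, 1.96 for Elk3, 1.67 for Erg, 1.54 for Hhex, 1.23 for Ets2 and 1.19 for Lyl1, where brain had the larger gain, and -1.55 for Mef2c, where kidney had it. All 9 differences kept their direction and their call in every alternative run, with each library left out in turn included. The factor whose difference did not pass was Tal1, at 0.32 (adjusted p = 0.19).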

How the results depend on the processing

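Of 1770 recomputed log2 fold changes of the 10 factors, 1689 kept their direction and side of the threshold, 37 lost a call, 33 gained one and 11 turned direction. Those that turned were Mef2c in brain EC against the brain transcriptome (-0.043 with total counts, -0.041 and -0.043 with limma at a pseudocount of 1 and 0.1), Gata2 in brain EC against kidney EC (0.005 in 1 fit of 21 samples) and, between brain translatome and transcriptome, Ets2 (-0.054 to 0.021 over the libraries left out, 0.021 without brain translatome replicate 1 and 0.003 without brain transcriptome replicate 2). In the organ difference of ribosome association Tal1 turned without brain translatome replicate 3 (-0.117) or brain transcriptome replicate 2 (-0.006; -0.117 to 0.276 over the libraries left out), Hhex without brain transcriptome replicate 3 (-0.049; -0.049 to 0.183 over the libraries left out) and with limma at a pseudocount of 1 (-0.155), and Gata2 with the latter (-0.037). None of these passed the threshold, and the cause was not tested.

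Counts of factors called moved as follows. Brain EC over kidney EC had 1 higher with limma at either pseudocount and 1 to 2 with a library left out, and 5 lower at a threshold of 0.05. With DESeq2, Erg joined the factors lower there, and Mef2c joined those higher in brain EC than in the brain transcriptome. The Emx1-lineage had 0 higher with limma at either pseudocount. Brain translatome over transcriptome had 7 higher and 1 lower at 0.05, 6 higher with the replicate block and 1 with limma at either pseudocount. Kidney translatome over transcriptome had 7 higher at 0.05, 8 higher and 2 lower with the block, and 0 lower with the 10-count filter, in 1 fit of 21 samples and with limma at either pseudocount, and 0 to 1 lower with a library left out. The organ difference of ribosome association had 2 lower at 0.05, and 1 higher and 1 lower with the block. The replicate block moved no other count of factors by over 1.5 times, and changed 1 other call, of Tal1 in brain against kidney transcriptome (-0.53, adjusted p = 8.9e-04), where the deviations of same-numbered libraries correlated at -0.089 to 0.495 and the numbers were not taken to pair them. Leaving out a library moved none of 210 mean RPKM levels by over 1 SD, and scaling by TMM in place of the deposited RPKM moved 36 of 70.

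Counts over all genes that moved by over 1.5 times were as follows, with the count by the main test in brackets and total counts given with the results. At a threshold of 0.05, kidney EC had 5223 genes higher [3163] and 5286 lower [2837] than the translatome and 6127 lower than the transcriptome [3550], brain EC against kidney EC 5864 higher [3876] and 5605 lower [3251], the Emx1-lineage 4278 higher [1749] and 4302 lower [2442], brain translatome over transcriptome 5461 lower [3596], kidney 4704 higher [2880] and 5050 lower [3049], the organ difference in endothelial gain 5335 higher [3258] and 3187 lower [1700], and that in ribosome association 2107 higher [472] and 2540 lower [829]. With limma at a pseudocount of 1 and of 0.1, genes higher than the translatome were 2931 and 3067 in brain EC [4740] and 1247 and 1325 in kidney EC [3163], with 4293 and 4592 lower in kidney EC [2837], and against the transcriptome 3331 and 3459 were higher in brain EC [5232] and 1964 and 2057 in kidney EC [4388], with 6041 and 6206 lower [3550]. In the Emx1-lineage 367 and 455 were higher with limma [1749], 1164 with the 10-count filter, 1116 with the block, and 1138 and 1110 without Emx1-lineage replicate 1 and 2. DESeq2 gave 2735 lower in the endothelial gain [1700], and 1128 higher [472] and 1581 lower [829] in ribosome association. The block gave 4636 higher and 4860 lower in kidney translatome over transcriptome, and 1467 and 1978 in ribosome association, where limma at 0.1 gave 302 higher and leaving out a library 255 to 437. The 3 libraries per group, and the driver line, tamoxifen and sequencing lane that go with the endothelial groups, limit all of these results.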
